A study of Mus musculus with 6 samples.

Results

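The genes described here mostly encode carriers that move amino acids, or the amino acid derivatives creatine, taurine, betaine and serotonin, across cell membranes. They were taken by name as every gene of the table whose symbol was Slc1a, Slc3a, Slc6a, Slc7a, Slc36a, Slc38a or Slc43a followed by a number, which gave 49 of 22962 genes. Another 14 annotated genes of these 7 families had no row in the table and were not analysed here. RNA sequencing was done on alveolar macrophages, the resident phagocytes of the lung's air spaces, from C57BL/6 mice that had received saline or bleomycin into the trachea 2 weeks earlier. Bleomycin is a DNA-damaging drug used to produce lung fibrosis in mice. Cells washed out of the lung were cleared of red blood cells, plated for 30 minutes in medium with 10% FBS, washed, and lysed where they adhered, so adherence and not a sort defined them. The saline group had 3 libraries (1, 2 and 3) and the bleomycin group had 3 (1, 2 and 5). The labels give neither the age of the mice nor whether each library came from a separate mouse, so the p-values reflect only how far these libraries differ, and some of that may be technical.

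Amino acid carriers are grouped by sequence and by what drives them. SLC6 carriers take up substrates with sodium and chloride, SLC1 and SLC38 carriers use sodium, and some SLC36 carriers use protons. Most SLC7 carriers exchange an amino acid for another while bound to a heavy chain of the SLC3 family. In macrophages these carriers supply arginine to arginase and nitric oxide synthase, cystine for glutathione and glutamine for energy, and carriers in the lysosome membrane return amino acids from digested material and take part in amino acid sensing by the kinase complex mTORC1.

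Values are normalized read counts, which are the reads of a gene divided by 1 size factor per library, and recovered reads numbered 27654799 to 37147983 per library. Monocyte and monocyte-derived macrophage markers rose (10 of 10 tested, summed values 2623 to 3436 with saline and 141287 to 267139 after bleomycin), and resident alveolar macrophage markers fell (8 of 13, sums 621170.0 to 779799 and 356713 to 476606). Bleomycin library 1 was the least shifted of its group in both sums. Of the T cell markers 8 of 9 rose and Cd2 fell, and the 9 summed to between 12849 and 15596 in saline libraries and between 7799 and 10925 in bleomycin libraries. Without Cd2, set aside after its values were seen, the sums were 23.9 to 41.2 with saline and 215 to 757 after bleomycin. Markers of other cell types rose in part, with 4 of 6 tested for dendritic cells (sums 284.7 to 631 with saline, 989 to 2126 after bleomycin), 2 of 2 for B cells (16.3 to 20.6, and 83.5 to 1002), 2 of 4 for neutrophils (1464 to 2862, and 2927 to 3213) and 2 of 5 for fibroblasts (35.3 to 321, and 219 to 849). General macrophage markers rose in 2 of 6 tested (sums 750981 to 892550 with saline, 1385393 to 1654815 after bleomycin). Neither the 2 endothelial markers tested nor the 1 red blood cell marker tested passed the test described below. For comparison, 9.76% of all genes tested rose and 3.9% fell. No marker with a row in the table was at 0 in all 6 libraries. In these bulk samples a change in the number of cells of a type and a change in RNA per cell cannot be told apart, and the part of cell composition in the transporter values was not tested.

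Of the 49 transporter genes, 31 reached a value of 10 in at least 3 libraries and were tested. By limma's moderated test with Benjamini-Hochberg adjustment over all 13512 genes tested, 5 of the 31 rose after bleomycin, 3 fell and 23 did not pass an adjusted p of 0.05. Over all genes tested 13.7% passed, 9.76% as higher and 3.9% as lower. Of the 5 that rose, Slc6a12 and Slc6a14 reached the minimum only through the bleomycin libraries, so these counts are a description. The genes that rose were the creatine transporter Slc6a8, the proton-coupled carriers Slc36a2 and Slc36a1, the betaine carrier Slc6a12 and the broad amino acid carrier Slc6a14. Those that fell were the serotonin transporter Slc6a4, the arginine and lysine carrier Slc7a1 and the large neutral amino acid carrier Slc7a5. The groups did not overlap for 11 of the 31, where 30.8% of all genes tested did not overlap, so that count is close to the background. The median log2 difference over the 31 was 0.21, beside -0.01 over all genes tested. All log2 differences are bleomycin minus saline on log2(value + 1), a scale that understates the change of low genes.

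**Figure D1:**
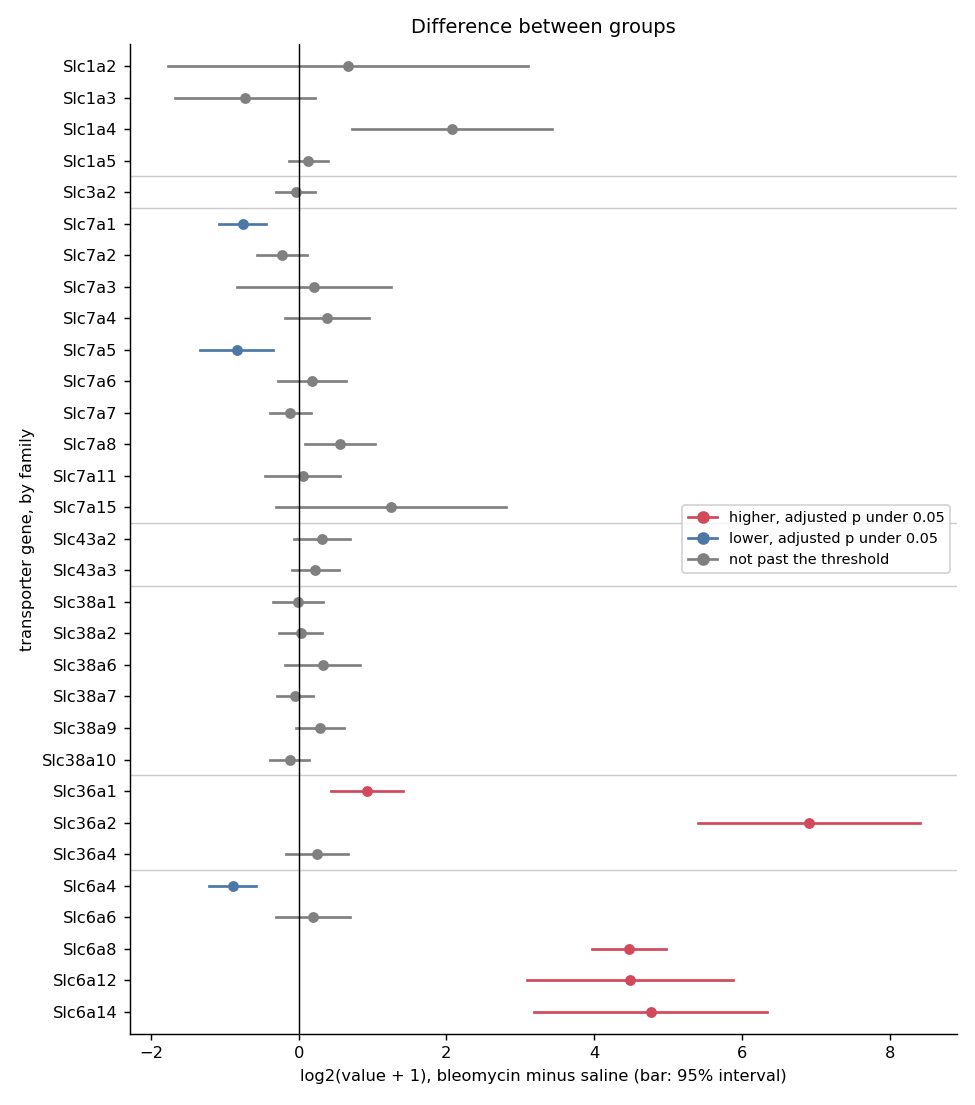
Log2 difference between bleomycin and saline, on log2(value + 1), for the 31 tested transporter genes grouped by family, with points for the estimate and bars for its 95% interval. The 5 genes that rose lie in the SLC6 and SLC36 families, the 3 that fell in SLC6 and SLC7, and 18 of the 23 other genes lie within 0.5 of 0.

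Bases around the start site are shown for 5 of these genes, to set the changed genes Slc36a1, Slc7a1 and Slc6a4 beside Slc7a11 and Slc1a4, which hold a sequence bound by amino acid starvation factors. Each stretch is 150 bases, 140 before the start and 9 after it, 5′ to 3′ on the gene's strand, from RefSeq on GRCm38.p6. Capitals mark matches, on either strand, to TGATGNAA (bound by ATF4 with C/EBP factors), TGACNNNGC (NRF2) or CACGTG (an E box, read by TFEB, TFE3 and many other factors). The stretches lie at chr11:55204200-55204349 (plus strand), chr5:148399895-148400044 (minus), chr11:76998457-76998606 (plus), chr3:50443604-50443753 (minus) and chr11:20332704-20332853 (minus).
Slc36a1: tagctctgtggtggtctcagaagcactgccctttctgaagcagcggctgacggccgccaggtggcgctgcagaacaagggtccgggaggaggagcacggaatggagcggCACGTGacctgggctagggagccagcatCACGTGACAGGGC
Slc7a1: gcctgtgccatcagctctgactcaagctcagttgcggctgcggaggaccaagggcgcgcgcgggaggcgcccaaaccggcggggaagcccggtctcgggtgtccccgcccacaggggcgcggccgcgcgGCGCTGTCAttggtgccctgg
Slc6a4: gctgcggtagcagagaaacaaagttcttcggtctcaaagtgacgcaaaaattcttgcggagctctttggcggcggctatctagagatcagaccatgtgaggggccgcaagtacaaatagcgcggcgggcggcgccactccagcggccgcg
Slc7a11: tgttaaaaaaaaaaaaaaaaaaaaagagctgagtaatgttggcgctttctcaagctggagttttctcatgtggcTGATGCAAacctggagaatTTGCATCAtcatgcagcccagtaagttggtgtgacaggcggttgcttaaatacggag
Slc1a4: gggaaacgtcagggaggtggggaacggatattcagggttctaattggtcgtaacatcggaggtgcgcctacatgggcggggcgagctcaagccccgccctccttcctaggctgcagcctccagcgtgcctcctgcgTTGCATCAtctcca
In Slc36a1, CACGTG began 31 and 3 bases before the start, and the second match overlapped a TGACNNNGC match. Slc7a1 held TGACNNNGC on the opposite strand, Slc7a11 held TGATGNAA once on each strand, Slc1a4 held it on the opposite strand, and Slc6a4 held none of the 3 motifs in this stretch. The Slc7a1 stretch was chosen for its match, and the other Slc7a1 start site had none of the 3 motifs around it. Of the other genes past the threshold, Slc6a12 and Slc6a14 held none of the 3 motifs. For Slc6a8, Slc36a2 and Slc7a5 no promoter sequence was at hand. RefSeq's table gave 52 promoter windows of 300 bases for 35 of the 49 genes. TGATGNAA stood in 5 of the 52 (9.62%, beside 3.97% of 32851 windows of all genes), TGACNNNGC in 10 (19.2% beside 12.4%) and CACGTG in 4 (7.69% beside 7.15%). Windows of a gene can overlap and count a site again, as for Slc7a7 and Slc7a6. By gene the counts were 4, 8 and 4 of 35 (11.4%, 22.9% and 11.4%), beside 4.51%, 14.0% and 8.09% of 27025 genes. Some genes with a match, such as Slc6a21 and Slc6a16, were below the filter and not tested. A match is a description of letters and does not show that a factor bound there.

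The creatine transporter showed the smallest p of the 31 genes. Slc6a8 (ENSMUSG00000019558, chrX:73673150-73682502, plus strand, GRCm38) imports creatine, the store of high-energy phosphate that cells load and unload through creatine kinases. Its values were 121, 86.9 and 89.1 in saline libraries 1, 2 and 3, and 1641, 2413 and 2672 in bleomycin libraries 1, 2 and 5. Every bleomycin library stood far above every saline library, with bleomycin 1 the lowest of its group. The means were 98.9 ± 18.9 and 2242 ± 536 (SD, n = 3 each), a difference of 4.48 ± 0.22 (SE) on the log2 scale or 22.2-fold, with an adjusted p of 1.91e-05 by limma. This call held in all 18 alternative analyses.

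Among the genes that make and use creatine, a list of 6, 3 could be tested, and 2 rose and 0 fell, with a median log2 difference of 1.57. Over all genes tested 9.76% rose and 3.9% fell, and 3 genes are too few to set against those shares. Ckb, the brain-type cytosolic creatine kinase, had values of 71.6, 36.9 and 127 with saline and 536, 570.2 and 581 after bleomycin. No library of one group reached the other, and the difference was 2.99 ± 0.38 (adjusted p 0.00148, limma). Gatm, which catalyses the first step of creatine synthesis, stood at 175, 106 and 129 with saline and 272, 445 and 523 after bleomycin (1.57 ± 0.28, adjusted p 0.00747). Gamt, which catalyses the last step, had means of 444 ± 32.1 and 395 ± 46.8, with overlapping groups and a difference of -0.17 ± 0.15 (adjusted p 0.545). Muscle-type Ckm and mitochondrial Ckmt1 stayed below the test's minimum, with 8 and 13 reads for Ckm and 6 and 26 for Ckmt1 in the saline and bleomycin groups, and Ckmt2 was not analysed here.

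The SLC36 carriers PAT1 and PAT2 move small neutral amino acids such as glycine, alanine and proline together with protons. Of the 4 genes of the family, 3 were tested and 2 rose. Among all genes tested 9.76% rose, and 3 genes are too few to set against that share. Slc36a2 (ENSMUSG00000020264, chr11:55158470-55185077, minus strand), which encodes the high-affinity carrier PAT2, had values of 12.7, 2.17 and 25.5 with saline and 1120.2, 1118 and 1591 after bleomycin. No saline library reached the level of any bleomycin library. The difference was 6.91 ± 0.66 (adjusted p 0.000404, limma), and it held in all 18 alternatives.

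Slc36a1 (ENSMUSG00000020261, chr11:55204350-55236330, plus strand), whose product PAT1 exports amino acids from endosomes and lysosomes, was already abundant in saline libraries. It read 2055, 1419 and 1239 there and 2298, 3247 and 3318 after bleomycin. The groups did not overlap, but saline 1 and bleomycin 1 lay close together. Slc36a1 rose 1.90-fold (0.93 ± 0.21, adjusted p 0.0225, limma). The call was lost without saline 2 (adjusted p 0.0738), saline 3 (0.0789), bleomycin 2 (0.107) or bleomycin 5 (0.11), and with no intensity trend in the fit (0.0708).

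Slc36a4, a carrier of proline and tryptophan, did not pass the test. Its values were 2953, 2175 and 2133 with saline and 2235, 3134 and 3268 after bleomycin, with overlap (0.25 ± 0.18, adjusted p 0.475). Slc36a3, which is known from testis, stayed below the minimum at 9.81, 6.52 and 2.12 with saline and 10.8, 7.69 and 16.4 after bleomycin. Slc36a1, Slc36a2 and Slc36a3 are neighbours on chromosome 11. The starts of Slc36a2 and Slc36a1 lie 19273 bases apart and point away from each other, and Slc36a3 lies beyond the other end of Slc36a2 on the same strand. Per kb of exon, the ratio of Slc36a2 to Slc36a1 was 0.0107, 0.00265 and 0.0355 in saline libraries and 0.843, 0.595 and 0.829 in bleomycin libraries, so the neighbours changed unequally. An exact two-sided permutation test gave p = 0.1, the smallest that 3 against 3 allows. The Slc36a2 values, already far apart, fixed this outcome, so it adds no support.

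**Figure D2:**
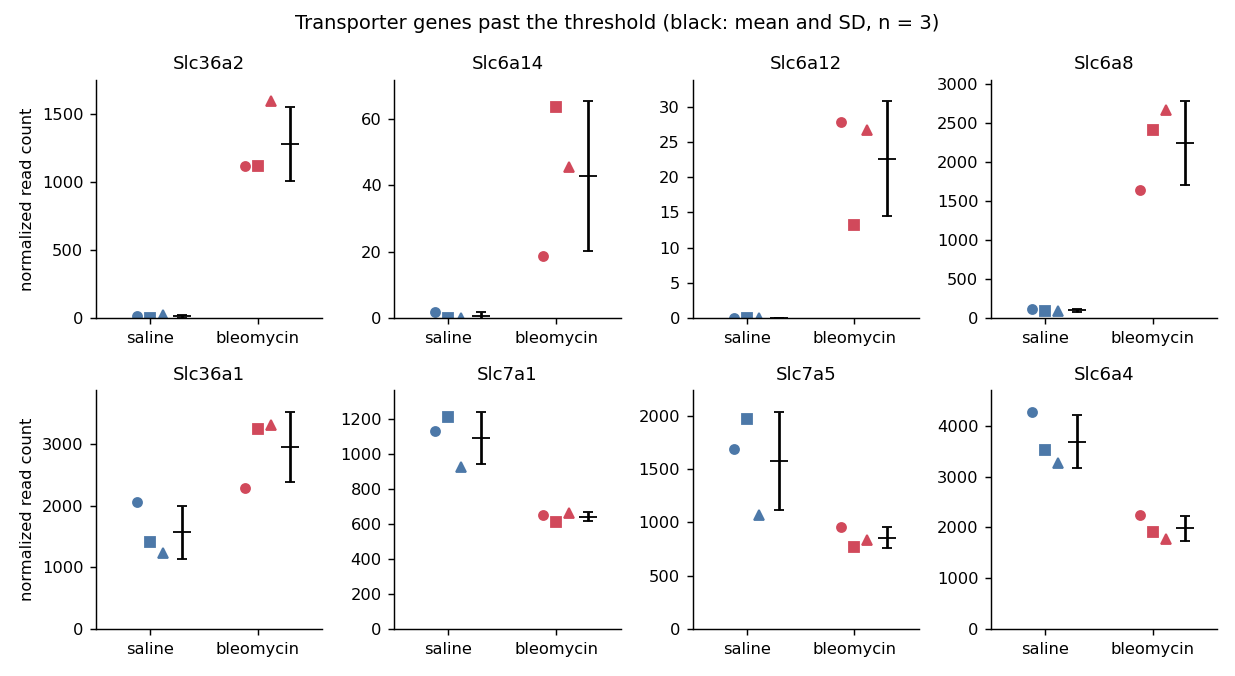
Normalized read counts in each library for the 8 transporter genes past the threshold, 1 panel per gene with its own linear axis from 0, circles for replicate 1, squares for replicate 2, triangles for saline 3 or bleomycin 5, and black bars for the mean and SD. In each panel the 3 bleomycin libraries lie wholly above or wholly below the 3 saline libraries.

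Of the 15 SLC6 genes in the table, 5 were tested, and 3 rose and 1 fell. Among all genes tested 9.76% rose and 3.9% fell, and 5 genes are too few to set against those shares. Besides Slc6a8, the risers were genes at or near 0 in saline libraries. Slc6a12 (ENSMUSG00000030109, chr6:121343076-121365775), the carrier of the osmolyte betaine and of GABA, was at 0 in all 3 saline libraries and at 27.8, 13.2 and 26.7 in bleomycin libraries. That is 0 against 74 reads, at least 22.5-fold higher when a floor of 3 reads over the saline group is used (adjusted p 0.00198, limma). Slc6a14 (ENSMUSG00000031089, chrX:21714896-21742355), a concentrating carrier of neutral and cationic amino acids known from mucosal epithelia, was at 1.96, 0 and 0 with saline and 18.9, 63.7 and 45.7 after bleomycin. It had 2 against 132 reads, a ratio of 60.3 with a 95% binomial counting interval of 16.4 to 503, which covers counting error only (adjusted p 0.00272, limma). Each of these genes reached the minimum only through the 3 bleomycin libraries, so it could not be tested with a bleomycin library left out or the minimum raised, and its call says nothing of stability.

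Epithelial markers moved with Slc6a14 only in part. Of the 10 epithelial markers 6 rose and 2 fell. The 10 summed to between 24668 and 31896 in saline libraries and between 12168 and 19094 in bleomycin libraries. Without Epcam, Krt19 and Cdh1, set aside after their values were seen, the other 7 summed to 150.0 to 306 with saline and 907 to 2162 after bleomycin, and 6 of the 7 rose. Bleomycin 1 was the lowest of its group in that sum and for Slc6a14, but the highest of its group in the sum of all 10 markers. It was also the lowest for 20 of the 31 tested transporter genes and in the monocyte, dendritic cell and B cell marker sums, though the highest in the fibroblast sum. An order shared this widely cannot tell which cells gave the Slc6a14 reads. The part of epithelial cells in the Slc6a14 value was not tested.

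Slc6a4 (ENSMUSG00000020838, chr11:76998603-77032340, plus strand), the serotonin transporter that is the target of antidepressant reuptake inhibitors, was abundant and fell. It stood at 4275, 3522 and 3272 in saline libraries and at 2246, 1915 and 1783 in bleomycin libraries. The lowest saline library was well above the highest bleomycin library. The fall was 1.86-fold (-0.89 ± 0.14, adjusted p 0.00398, limma), and it held in all 18 alternatives. The taurine transporter Slc6a6 was the SLC6 gene with the highest values, 21825, 14696 and 15326 with saline and 14252, 22579 and 22781 after bleomycin. Its spread within each group was wider than the difference between them (0.19 ± 0.22, adjusted p 0.667). The ratio of Slc6a8 to Slc6a6 per kb of exon was nearly constant within groups, at 0.00897, 0.0096 and 0.00943 with saline and 0.187, 0.173 and 0.19 after bleomycin (exact permutation p = 0.1, the smallest possible). The Slc6a8 values fixed that p, so it adds no support.

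Slc3a2 encodes CD98, the heavy chain that carries several SLC7 light chains to the cell surface. It had the highest level per kb of exon of all 31 tested genes in both groups. Its values were 19870.1, 19162 and 22878 with saline and 21288, 18969.8 and 19758 after bleomycin. The groups overlapped, and the difference of -0.04 ± 0.12 had a 95% interval of -0.31 to 0.23 (adjusted p 0.871, limma).

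The light chains tested that pair with it were Slc7a5, Slc7a6, Slc7a7, Slc7a8 and Slc7a11, of which 1 fell and none rose. These genes are too few to set against the 9.76% of all genes tested that rose and the 3.9% that fell. Slc7a5 (ENSMUSG00000040010, chr8:121881150-121907694, minus strand), or LAT1, exchanges glutamine for leucine and other large neutral amino acids. It read 1689.5, 1966 and 1069 with saline and 959, 768 and 838 after bleomycin. The groups did not overlap, although saline 3 lay near the bleomycin values. The fall was 1.79-fold (-0.84 ± 0.22, adjusted p 0.0368, limma). It lost the call without saline 1 (0.106), saline 2 (0.104), bleomycin 2 (0.154) or bleomycin 5 (0.134), and with no intensity trend in the fit (0.0942).

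Slc7a8, or LAT2, takes an overlapping set of neutral amino acids, and its values were 1576, 2002 and 1346 with saline and 1789, 2622 and 2911 after bleomycin. Only bleomycin 1 lay within the saline range. The difference of 0.56 ± 0.21 did not pass (adjusted p 0.129, limma), whereas without bleomycin 1 it was 0.77 with an adjusted p of 0.0251. The ratio of Slc7a8 to Slc7a5 per kb of exon was 0.691, 0.754 and 0.933 in saline libraries and 1.38, 2.53 and 2.57 in bleomycin libraries. Slc7a5 thus had the higher level of the pair in each saline library and Slc7a8 in each bleomycin library (exact permutation p = 0.1, the smallest possible). The ratio rests in part on the Slc7a5 fall given above, so it is not separate support.

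Slc7a7, which exports cationic in exchange for neutral amino acids, read 1601, 1567 and 1379 with saline and 1276, 1422 and 1502 after bleomycin (-0.11 ± 0.12, adjusted p 0.634). Slc7a11, or xCT, imports cystine for glutathione in exchange for glutamate, and read 2602, 4410.0 and 4428 with saline and 3144, 4214 and 4327 after bleomycin (0.06 ± 0.22, adjusted p 0.911). Both sets overlapped, and for Slc7a11 replicate 1 was the lowest of each group. Slc7a6, a relative of Slc7a7, had means of 449.7 ± 129 and 498 ± 19.4 (0.18 ± 0.20, adjusted p 0.648). Summed per kb, the 5 light chains came to 0.279, 0.331 and 0.212 of the Slc3a2 level with saline and 0.221, 0.292 and 0.301 after bleomycin (exact permutation p = 1). The sum relative to the heavy chain thus overlapped between groups. Of the 5 shares in the sum, only those of Slc7a5 and Slc7a8 did not overlap between groups (exact permutation p = 0.1 each, the smallest possible), and those of Slc7a6, Slc7a7 and Slc7a11 gave p = 0.5, 0.4 and 0.8. Because the shares are parts of the same sum, the Slc7a5 fall given above raises the other shares. These p-values are therefore not separate support for a change of Slc7a5 or Slc7a8.

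**Figure D3:**
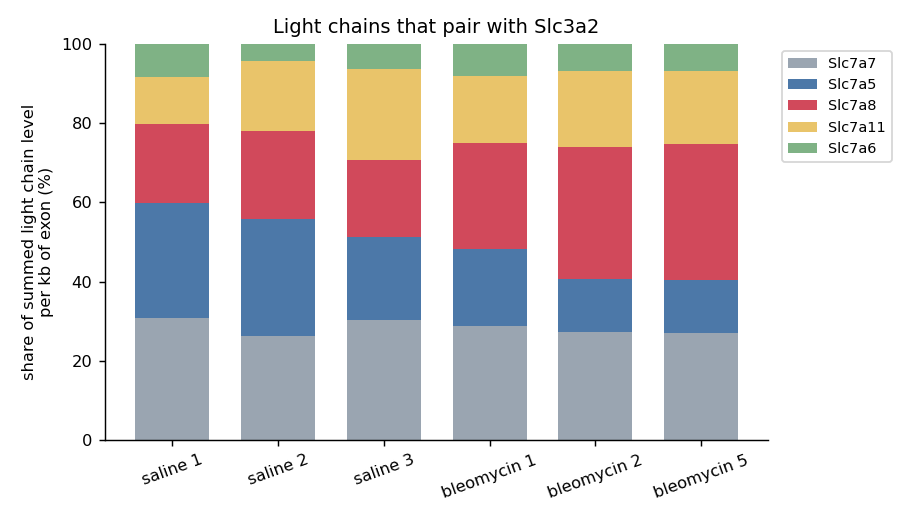
Share of each of 5 light chain genes in their summed level per kb of exon, 1 bar per library, with saline libraries on the left and bleomycin libraries on the right. Slc7a5 held 20.9% to 29.5% in saline and 13.2% to 19.4% in bleomycin libraries, and Slc7a8 19.5% to 22.2% and 26.8% to 34.5%.

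Among the cationic amino acid transporters, which carry arginine, lysine and ornithine, 1 of 4 tested fell. Again 4 genes are too few to set against the 3.9% of all genes tested that fell. Slc7a1 (ENSMUSG00000041313, chr5:148327410-148399904, minus strand), the widely expressed CAT1, had values of 1134, 1214 and 927 with saline and 652, 612 and 663 after bleomycin. The bleomycin libraries were tightly grouped below all saline libraries, and the fall was 1.69-fold (-0.76 ± 0.14, adjusted p 0.00803, limma). The call was lost without bleomycin 2 (adjusted p 0.0564). Slc7a2, or CAT2, the form known to be inducible in macrophages, read 14571, 16371 and 11165 with saline and 12141, 11550.0 and 12038 after bleomycin. The groups overlapped (-0.22 ± 0.15, adjusted p 0.421). Per kb of exon Slc7a1 was 0.0587 to 0.0658 of Slc7a2 in saline and 0.042 to 0.0436 in bleomycin libraries. Slc7a3 and Slc7a4, their relatives, had means under 100 in both groups and log2 differences of 0.21 ± 0.46 and 0.38 ± 0.25. Slc7a15, grouped here with the SLC7 light chains and not with the cationic carriers, was near the filter (1.25 ± 0.68, adjusted p 0.308).

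None of the 4 tested SLC1 genes passed. Slc1a5, or ASCT2, the sodium-coupled exchanger of glutamine and other neutral amino acids, read 1758, 1871 and 1560.0 with saline and 1799, 1855 and 2014 after bleomycin (0.13 ± 0.12, adjusted p 0.563, limma). Slc1a4, or ASCT1, which exchanges serine, alanine and cysteine, was far lower at 17.7, 7.61 and 3.18 with saline and 26.1, 56.0 and 31.9 after bleomycin. Its groups did not overlap, and the difference of 2.08 ± 0.59 had an adjusted p of 0.052. It passed without saline 1 (0.0202), with a pseudocount of 5 (0.0405) and with DESeq2 on the recovered reads (0.0221). In the other 14 of the 17 alternatives where Slc1a4 could be tested it did not pass. The glutamate transporters Slc1a3 and Slc1a2, best known from astrocytes, had differences of -0.72 ± 0.42 (means 88.8 and 53.7, adjusted p 0.332) and 0.66 ± 1.07 (means 11.5 and 10.2, adjusted p 0.769).

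None of the 6 tested SLC38 genes passed either, and their log2 differences lay between -0.12 and 0.33. Slc38a1 and Slc38a2 encode sodium-coupled carriers that bring glutamine into cells. Slc38a1 read 4388, 3084 and 3810.4 with saline and 3355, 3840.1 and 3931 after bleomycin, with a difference of -0.01 ± 0.15 (adjusted p 0.983). Slc38a2, whose transcript is known to rise on amino acid shortage, read 3402, 3320.3 and 2716 with saline and 2954, 3536 and 3114 after bleomycin (0.03 ± 0.13, adjusted p 0.927). For both genes the saline range overlapped the bleomycin range. Slc38a7, a lysosomal exporter of glutamine and asparagine, read 2512, 2191 and 2289.6 with saline and 2299, 2132 and 2332 after bleomycin (-0.05 ± 0.11, adjusted p 0.843). Slc38a9, the lysosomal carrier that signals arginine to mTORC1, had means of 658 ± 42.4 and 807 ± 106 without overlap between groups, and did not pass (0.29 ± 0.14, adjusted p 0.255).

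Slc38a10 read 5219.5, 4932 and 4663 with saline and 3993, 4897 and 4750.3 after bleomycin (-0.12 ± 0.12, adjusted p 0.587). Slc38a6 read 1539.5, 913 and 1749.8 with saline and 1629.5, 1737 and 1719.6 after bleomycin (0.33 ± 0.22, adjusted p 0.422). Its bleomycin libraries were close together, and saline 2 stood below the rest. Of the SLC43 family, Slc43a2, a facilitative carrier of large neutral amino acids, read 3789, 2521 and 2699 with saline and 3308, 3676 and 4083 after bleomycin (0.32 ± 0.17, adjusted p 0.291). Slc43a3, a carrier of purine bases, had means of 335 ± 19.5 and 392 ± 18.5 without overlap (0.22 ± 0.14, adjusted p 0.376).

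Among the 23 genes that did not pass, 17 had a saline mean of at least 300, and for 16 of these the 95% interval of the difference excluded a 2-fold change. The exception was Slc7a8, whose interval reached from 0.08 to 1.04. Among the tested genes, the exons of Slc6a6, Slc7a2, Slc7a4, Slc7a7, Slc38a9, Slc38a10, Slc43a2 and Slc1a2 overlap a gene on the opposite strand. Because the strand setting of the counting is not given, it is not known how reads in the shared bases were counted. None of the 8 genes past the threshold has such an overlap.

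**Figure D4:**
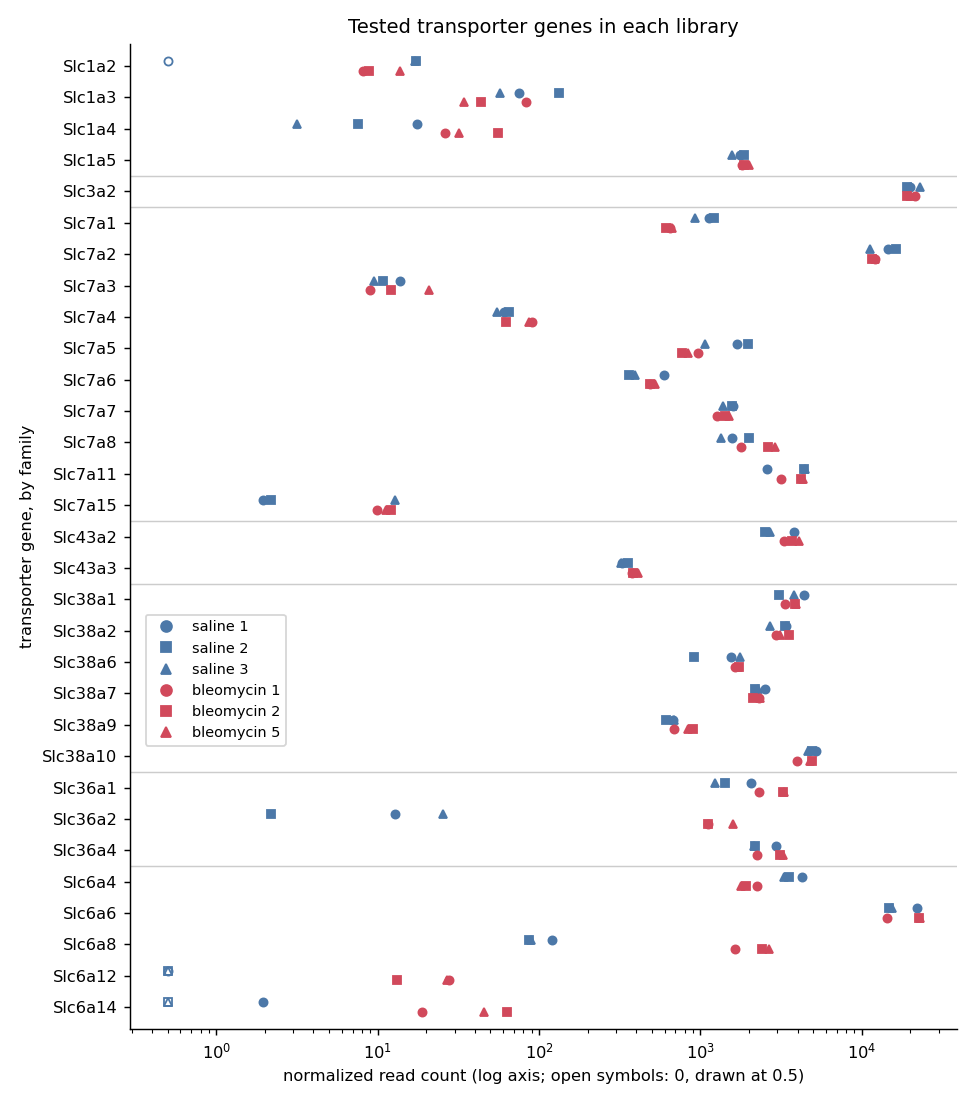
Normalized read counts of the 31 tested transporter genes in each library on a log axis, blue for saline and red for bleomycin, with open symbols for values of 0 drawn at 0.5. Most genes above 1000 show overlapping groups, and the wide gaps are at Slc36a2, Slc6a8, Slc6a12 and Slc6a14.

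The 18 genes below the minimum had 2 to 59 reads each over the 6 libraries, and 3 of them reached 10 in at least 1 library. Besides Slc36a3, these were the glycine transporter Slc6a9, at 6.86, 18.5 and 3.18 with saline and 11.7, 9.89 and 8.62 after bleomycin, and Slc6a20b, at 11.7 in saline 3, 5.17 in bleomycin 5 and 0 elsewhere. Another 4 genes were at 0 in all saline libraries and 2 in all bleomycin libraries. Slc6a16, for example, had 0 against 12 reads, at least 3.66-fold higher against the same floor. Slc3a1, the heavy chain of the renal cystine carrier, had 7 against 0 reads, at least 2.55-fold lower. The neutral amino acid carrier Slc6a19 had 1 against 15 reads (ratio 13.7, 95% counting interval 2.11 to 577), and the neuronal and epithelial glutamate transporter Slc1a1 had 3 against 20 (6.09, 1.81 to 32.0). These examples were chosen after their values were seen, and none was tested.

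Levels of different genes can be compared per kb of exon, leaving aside differences in mapping. In saline libraries the order began with Slc3a2 (5848 per kb), Slc6a6 (2044), Slc7a2 (1537), Slc6a4 (814) and Slc38a10 (769). The ranges of Slc6a6 and Slc7a2 overlapped, as did those of Slc6a4 and Slc38a10, so these neighbours did not differ beyond their spread. In bleomycin libraries Slc3a2 (5669), Slc6a6 (2350) and Slc7a2 (1304) kept the first 3 places, and the ranges of these 3 did not overlap. Slc6a4 moved from place 4 to place 10 (437 per kb) and Slc7a5 from place 8 to 17 (425 to 231). In the other direction Slc36a1 moved from place 14 to 6 (279 to 525), Slc6a8 from 22 to 11 (19.0 to 430.3) and Slc36a2 from 25 to 13 (4.13 to 392). In bleomycin libraries places 6 to 12 were held by Slc36a1, Slc7a8, Slc1a5, Slc36a4, Slc6a4, Slc6a8 and Slc7a7, whose means lay between 422 and 525 per kb, and each overlapped its neighbour in the order. The creatine and PAT2 transcripts, among the scarce ones in saline libraries, thus reached levels per kb overlapping those of Slc1a5 in bleomycin libraries.

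Summed over all 49 genes, normalized read counts were 98705, 89045 and 86339 with saline and 86247, 98320 and 101501 after bleomycin (exact two-sided permutation p = 0.8). Slc3a2, Slc6a6 and Slc7a2 made up 56.4% to 57.2% of the sum in saline and 53.8% to 55.3% in bleomycin libraries. The total therefore overlapped between groups. Over the 23 transporter genes with a mean of at least 300, the median coefficient of variation within a group was 18.8% in saline and 10.5% in bleomycin libraries, beside 12.0% and 10.9% over 8243 genes of that level. Saline 1 was the highest of its group for 16 of the 31 tested genes and saline 3 the lowest for 16. Bleomycin 1 was the lowest of its group for 20 and bleomycin 5 the highest for 17.

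Genes that work beside these carriers were read from 6 lists, of which 94 genes other than the transporters were tested. In these lists 13 rose and 8 fell, with a median log2 difference of 0.06, and the groups did not overlap for 35. Over all genes tested 9.76% rose, 3.9% fell and 30.8% did not overlap, and the counts of each list below stand beside these shares. Without bleomycin 2 the number that passed was 9 in place of 21, and without bleomycin 5 it was 10. Without the intensity trend it was 15.

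The amino acid starvation response, driven by the factor ATF4 when an amino acid runs short, had 19 tested genes, of which 1 rose and 5 fell (median -0.09). Phgdh, the first enzyme of serine synthesis, had means of 5121 ± 1342 and 1964 ± 884 (-1.44 ± 0.29, adjusted p 0.0133, limma). Aldh18a1, which starts proline synthesis, had means of 1528 ± 134 and 1015 ± 33.4 (-0.59 ± 0.12, adjusted p 0.0115), and the factor Atf5 1067 ± 267 and 489.9 ± 128 (-1.13 ± 0.24, adjusted p 0.0147). Named after their values were seen, the asparagine synthetase gene Asns (372 ± 240.4 and 111 ± 20.9) and the serine-to-glycine enzyme Shmt2 (1465 ± 147 and 1003 ± 117) also fell, and Ddit4, an inhibitor of mTORC1, rose from 17.1 ± 3.02 to 60.8 ± 21.7. The other serine synthesis enzymes of the list, Psat1 (0.10, adjusted p 0.693) and Psph (0.29, adjusted p 0.469), did not pass. Atf4 itself, whose control is largely at translation, did not pass (-0.16 ± 0.16, adjusted p 0.595). Without bleomycin 2, and without bleomycin 5, none of these 6 calls held, Asns also lost its call without bleomycin 1, and Shmt2 without saline 2 or saline 3. Without the intensity trend 2 of the 5 falls held, and Asns (adjusted p 0.0747), Phgdh (0.0509) and Shmt2 (0.071) did not pass.

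Sensing of amino acids at the lysosome by mTORC1 had 22 tested genes, of which 5 rose and none fell by limma (median 0.20). Rragd, one of the Rag GTPases that bring mTORC1 to the lysosome, stood at 32.4, 44.5 and 35.0 with saline and 154, 216 and 206 after bleomycin (2.33 ± 0.25, adjusted p 0.000628). Every bleomycin library lay above every saline library. The sestrins Sesn1 (1.21 ± 0.19, adjusted p 0.0036) and Sesn3 (1.93 ± 0.33, adjusted p 0.00617), which restrain mTORC1 when leucine or energy is short, rose as well. The remaining risers, named after their values were seen, were the folliculin partner Fnip2 (1.09 ± 0.20) and Castor2, a relative of the arginine sensor Castor1 (1.40 ± 0.28), and Castor2 lost the call without bleomycin 2 (adjusted p 0.0658) or bleomycin 5 (0.066).

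For glutathione synthesis, 9 genes were tested, 2 rose and none fell by limma (median 0.03). The list includes Slc7a11, which is one of the transporter genes. Anpep, a surface peptidase that cleaves the dipeptide left by glutathione breakdown among many others, rose from 1203 ± 664 to 7140.0 ± 2182 (2.65 ± 0.37, adjusted p 0.00231). Ggt5, a glutathione-cleaving transferase, rose 1.52-fold (0.60 ± 0.14, adjusted p 0.0248). The call was lost when saline 1, saline 3, bleomycin 2 or bleomycin 5 was left out. Gclm, the modifier subunit of the rate-limiting enzyme, had means of 3048 ± 559.8 and 2156 ± 103 and did not pass (-0.48 ± 0.15, adjusted p 0.0704).

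Among carriers of other families 19 were tested, and 1 rose and 1 fell (median 0.19). Slc16a10, which carries aromatic amino acids, fell from 4986 ± 1013 to 3237 ± 212 (-0.61 ± 0.15, adjusted p 0.0297), and Pqlc2, the lysosomal exporter of cationic amino acids, rose from 537 ± 11.7 to 737 ± 32.1 (0.46 ± 0.12, adjusted p 0.0385). Slc16a10 lost the call without saline 2, bleomycin 1, bleomycin 2 or bleomycin 5, and Pqlc2 lost it with any 1 library left out. Slc25a18, a mitochondrial glutamate carrier, did not pass (1.73 ± 0.50, adjusted p 0.0529).

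Of 24 tested enzymes that use the carried amino acids, 2 rose and 2 fell (median 0.09). Arg1, the arginase that splits arginine into ornithine and urea, rose from 14.0 ± 8.88 to 902 ± 248 (6.11 ± 0.51, adjusted p 0.000246), while the arginine carriers Slc7a1 fell and Slc7a2 did not pass. Got1, the cytosolic aspartate aminotransferase, stood at 883, 772 and 829 with saline and 1832, 2121 and 2364 after bleomycin, without overlap (1.34 ± 0.13, adjusted p 0.000463). Bckdhb, a subunit of the branched-chain keto acid dehydrogenase, fell (-0.73 ± 0.17, adjusted p 0.0215), and so did the glutamine synthetase gene Glul, named after its values were seen (27727 ± 862 and 20866 ± 364, adjusted p 0.0315). The Bckdhb call was lost without saline 2, saline 3, bleomycin 2 or bleomycin 5, and the Glul call without any one library other than bleomycin 1.

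**Figure D5:**
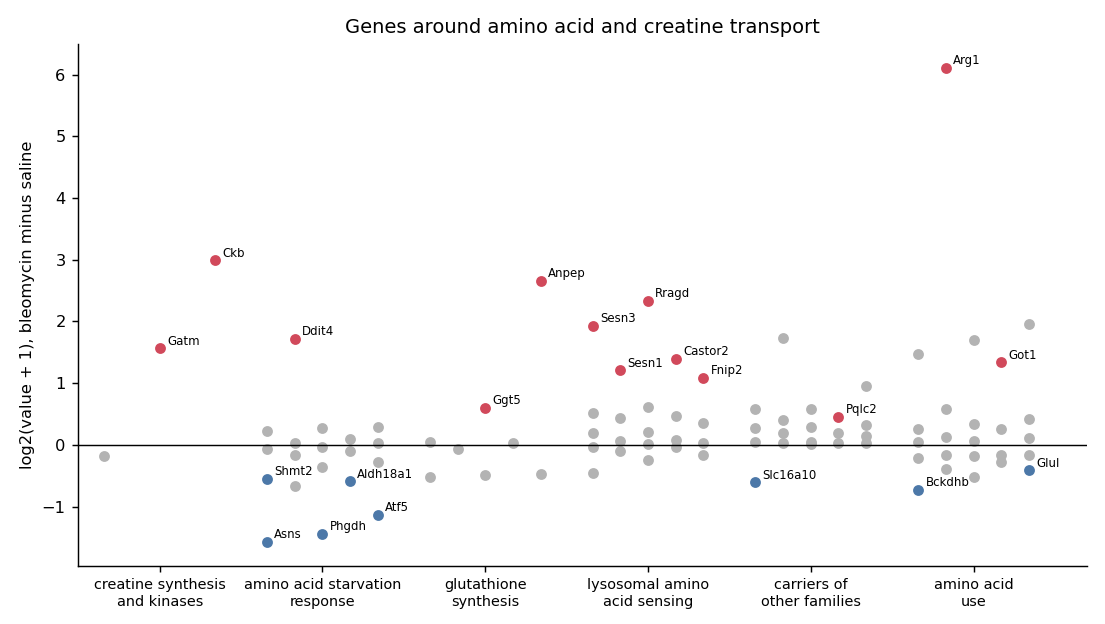
Log2 difference between bleomycin and saline, on log2(value + 1), for the tested genes of 6 lists around amino acid and creatine transport, 1 point per gene, red for higher, blue for lower and grey for not past an adjusted p of 0.05. The called genes of the sensing list all lie above 0, and 5 of the 6 called genes of the starvation list lie below it.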

How the data were processed

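Total RNA of 6 libraries was sequenced. The submitters' processing notes name mouse build mm10 and the tools STAR 2.5.2b, bcl2fastq 2.18.0.12, DESeq2 and HTSeq 0.6.0. What each tool did, the annotation, the strand setting and any filtering were not given in the sources used here. A single table deposited by the authors holds a normalized signal. In every library 100% of its values were whole multiples of 1 read, within 0.05 of a read, so reads could be recovered, and a low value rests on few of them. Symbols were found for 22873 of 22962 gene identifiers, with positions and exon lengths from a GRCm38 annotation.

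A gene was tested if 3 or more libraries had a value of 10 or more, which 13512 genes met. The test was limma's (version 3.58.1, R 4.3.3) on log2(value + 1), two-sided, with an intensity trend and group as the only term, and Benjamini-Hochberg adjustment over all genes at 0.05. Intervals are at 95%. The fit was repeated with a pseudocount of 0.5 or 5, without the filter or with a minimum of 50, with TMM or quantile scaling, without the trend, with robust variances, with a replicate block, and with each library left out. Recovered reads were tested with edgeR 4.0.16, which called 1303 genes higher and 518 lower, and DESeq2 1.42.0, which called 1544 and 769. The fit was tested on simulated data.

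The transporter genes, lists and tests were chosen with earlier results of these data known. Called transporters were named, with values in each library for them and for uncalled ones with a mean of at least 1000 in a group, other transporters by their differences or counts, the creatine list in full, and the 3 genes with the smallest p of each other list. Other named genes are marked where they appear.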

Additional observations from a re-analysis of the deposited data

How the results depend on the processing

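No transporter gene changed direction past the threshold in any of the 18 alternatives. The count of 5 higher and 3 lower was 3 higher and 3 lower with a minimum value of 50, where 25 transporter genes could be tested and Slc6a12 and Slc6a14 could not. It was 4 and 2 without the intensity trend, where 15 related genes passed in place of 21, 6 and 3 with a pseudocount of 5 or with DESeq2, and 5 and 3 with a pseudocount of 0.5, no filter, TMM, quantile normalization, robust variances or edgeR. Leaving out 1 library gave 2 to 6 higher and 1 to 3 lower, and 9 to 21 related genes. The low ends came without bleomycin 2 (2 higher, 1 lower) and without bleomycin 5 (2 higher, 2 lower), where Slc6a12 and Slc6a14 fell below the filter and the count over all genes was 522 higher and 166 lower, and 502 and 162. With a replicate block the transporter count was 4 higher and 3 lower, and Slc36a1 lost its call (adjusted p 0.191). Only numbers 1 and 2 occur in both groups, and the correlations of their deviations were -0.20 and 0.02. The labels do not say what a shared number means, and these correlations cannot settle it, so the main test assumed no pairs. Leaving out saline 2 and bleomycin 1 together, added after the data were seen, gave 4 higher and 2 lower. Quantile normalization gave 1114 higher and 752 lower over all genes, in place of 1319 and 527, and no alternative moved the median log2 difference of all genes by over 0.1. Depth limits the genes with few reads, 18 of which were not tested.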
